A study of Mus musculus with 6 samples.

Results

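The sites described here are peak calls for p53 that appear in the peak lists of 2 forms of the protein, score low in the wild-type list and lie away from protein-coding genes. They were chosen by score and by summit position, as entries of the WT list on chromosomes 1 to 19, X and Y that have a summit of the 3KR list at most 200 bp away, a WT score below 20, and a WT summit outside every protein-coding gene and more than 1 kb from any end of one. This leaves 270 of 1668 WT entries, or 270 of 1636 on these chromosomes (16.5%, 95% Wilson interval 14.8 to 18.4). The score is −log10 of a p-value or q-value given to each peak by the authors' peak caller. WT scores and the presence of a summit in both lists are measured values that selected the sites, so they are given as description only.

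ChIP-seq measures where a protein sits on DNA, by sequencing the DNA that an antibody against it pulls down. Here p53 was measured in basal progenitor cells of mouse epidermis, sorted as alpha-6 integrin high and EpCAM positive, from mice 8 weeks old of genotype p53WT or p533KR, with 3 libraries each. From general knowledge, 3KR is a p53 with lysines of its DNA-binding domain changed to arginine, which cannot be acetylated; the labels give only the name. Both groups had Nutlin-3a, which keeps MDM2 from degrading p53, at 25 µM during tissue digestion, and there is no group without it. The lists hold no expression, so the labelled cell type could not be checked against its markers. Each genotype is represented by 1 combined list (1668 summits in WT, 6753 in 3KR), so there is no spread between animals, and the depth behind each list is unknown. Peak names in the WT list carry the run label WT_1 and those in the 3KR list 3KR_Doxo, while the labels speak of combined lists and Nutlin-3a. Whether a difference between the lists comes from genotype, depth or such a run difference cannot be told apart. P-values and intervals below cover counting error over sites only, and sites close together on a chromosome are not independent.

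p53 is a transcription factor that binds as a tetramer to a DNA element made of a pair of similar decamers, the half-sites. Many of its binding sites lie far from gene starts, where a site can act as an enhancer on a gene at a distance. In basal keratinocytes the related protein p63, which recognises a similar element, is the main lineage factor. The nearest gene to an intergenic site is therefore only a neighbour, and nothing here measures its expression.

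Of the 270 sites, 7 can be shown with their DNA, because their WT summit falls in the 300-base window around the start of a long noncoding RNA (lncRNA) gene. The windows come from RefSeq (GRCm38.p6, the assembly of mm10), 5′ to 3′ on the strand of the gene. Capitals mark a p53 half-site (a match to the half-site consensus with at most 1 mismatch and an intact core, that is a C, 2 bases that are A or T, and a G; the consensus is its own reverse complement, so both strands are covered) or an AP-1 site (TGANTCA, both strands). The 4 windows below were chosen to show half-sites at and away from the summit and the only AP-1 site.
Platr6, minus strand, chr10:21847563-21847862: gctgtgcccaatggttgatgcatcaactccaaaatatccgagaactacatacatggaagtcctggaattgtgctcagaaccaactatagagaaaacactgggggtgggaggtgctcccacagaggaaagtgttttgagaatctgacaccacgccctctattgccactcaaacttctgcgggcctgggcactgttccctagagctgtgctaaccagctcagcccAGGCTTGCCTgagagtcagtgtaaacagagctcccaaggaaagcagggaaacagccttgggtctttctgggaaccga
Gm29985, minus strand, chr2:38988302-38988601: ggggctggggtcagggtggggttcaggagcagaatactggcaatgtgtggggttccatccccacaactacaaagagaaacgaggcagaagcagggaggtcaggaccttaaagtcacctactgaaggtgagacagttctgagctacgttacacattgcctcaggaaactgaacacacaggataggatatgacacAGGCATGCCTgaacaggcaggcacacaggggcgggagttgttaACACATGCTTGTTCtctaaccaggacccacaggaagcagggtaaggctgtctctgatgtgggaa
Gm33019, plus strand, chr13:56682354-56682653: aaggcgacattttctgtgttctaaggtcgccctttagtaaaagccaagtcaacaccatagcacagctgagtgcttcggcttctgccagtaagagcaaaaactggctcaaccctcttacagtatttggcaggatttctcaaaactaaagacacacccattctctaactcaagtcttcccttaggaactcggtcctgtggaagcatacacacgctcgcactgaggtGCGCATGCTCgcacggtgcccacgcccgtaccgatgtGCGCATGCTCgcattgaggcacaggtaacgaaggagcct
Gm51933, minus strand, chr11:117568598-117568897: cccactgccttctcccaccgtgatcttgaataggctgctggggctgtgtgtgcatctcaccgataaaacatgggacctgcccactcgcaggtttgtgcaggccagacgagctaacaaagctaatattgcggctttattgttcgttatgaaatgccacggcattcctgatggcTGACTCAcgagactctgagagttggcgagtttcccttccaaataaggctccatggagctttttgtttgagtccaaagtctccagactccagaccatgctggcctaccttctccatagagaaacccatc

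In the Platr6 window the WT summit (21847635 on chromosome 10) is base 228 and lies within the only half-site, which begins at base 224 and has no mismatch. The 3KR summit of this site is 49 bp away, and the scores were 13.0 in WT (rank 528 of 1668) and 27.5 in 3KR (rank 632 of 6753). The nearest protein-coding gene is Sgk1, a kinase gene, 34.5 kb away. In the Gm29985 window the WT summit is base 204, 6 bp from the centre of a half-site without mismatch that begins at base 194. Further matches begin at bases 237 and 241 and overlap each other. Here the 3KR summit is 6 bp from the WT summit, with scores of 10.9 in WT and 34.8 in 3KR (rank 408). The Gm33019 window, 20.4 kb from Smad5, a BMP signalling gene, holds 2 half-sites with 1 mismatch each, at bases 225 and 262, and the WT summit at base 230 lies in the first. Its scores were low in both lists, 5.22 in WT and 7.48 in 3KR.

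Gm51933 has no half-site by this definition and 1 AP-1 site. Its WT summit is base 33 of the window, and the AP-1 site stands much further along, away from the summit. Its scores were 5.22 in WT and 8.74 in 3KR. The remaining windows are those of Gm40016 (WT 11.2, 3KR 7.48), Gm35551 (WT 14.03, 3KR 8.74) and Gm28548 (WT 8.60, 3KR 17.4). Their closest half-sites were 71, 40 and 94 bp from the WT summit. In all, 6 of 7 windows held a half-site, 3 of them one without mismatch. Among all 32851 RefSeq windows of the same length, 39.6% held a half-site and 8.36% one without mismatch. None of the 7 held a p53 full site, defined as adjoining half-sites with at most 2 mismatches in all, and 0.158% of all windows did. The AP-1 site stood in 7.81% of all windows. These matches are a description of letters in a window, and the DNA of the other 263 sites was not used here.

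The 270 WT scores ran from 2.81 to 19.7 with a median of 9.43. The 3KR scores at the same sites, which the rule did not use, ran from 3.54 to 104 with a median of 13.5 and quartiles of 9.39 and 22.5. Scores of the lists are not on a common scale, and each was read against its own list. Against the median of all WT summits on these chromosomes (9.35), 139 of 270 sites were at or above. Against the 3KR median (10.1), 192 of 270 were. The upper part of both lists, at or above each median, held 109 sites, and the lower part of both held 48. Another 83 sites were in the upper part of 3KR only and 30 in the upper part of WT only. This split is shaped by the rule, which capped WT scores, left 3KR scores without a cap and required a 3KR summit. It is therefore not read as stronger binding in 3KR. Across the sites the scores went together weakly, with a Spearman rho of 0.287 and a Pearson r of 0.241 (n = 270 sites of the same lists, which share each list's depth). Without the chromosome 9 run they were 0.321 and 0.260 (n = 258). The rule cut the WT scores at 20, and this limited range can lower both coefficients, so they do not describe the full lists. The plot of both scores shows sites with the same WT score spread over a wide range of 3KR scores.

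**Figure D1:**
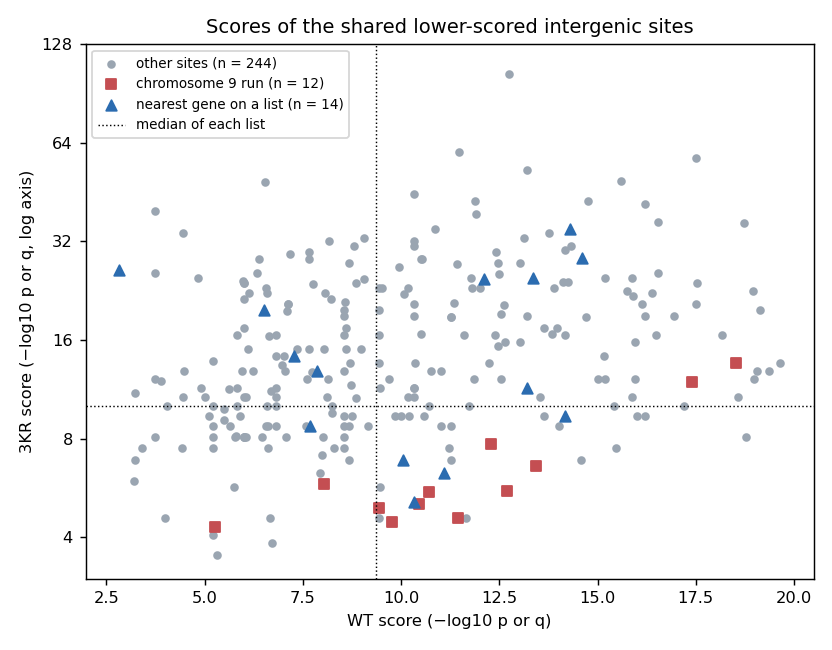
Score of each of the 270 sites in the WT list (x axis) and in the 3KR list (y axis, log scale), both −log10 p or q, with dotted lines at the median of each list. Squares are the 12 sites of the run on chromosome 9, of which 10 lie below the 3KR list median (range 4.30 to 13.6), and triangles the 14 sites whose nearest gene is on a list.

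Sites in or at genes that meet the same score and sharing rule were the closest comparison, since the rule separates them by gene position alone. The classes also differed in other ways. Another WT summit lay within 10 kb of 27.8% of intergenic sites and 11.0% of those at genes. The first 5 Mb of a chromosome held 12.6% and 3.02%. The contrast below is therefore not one of gene position alone. Of 364 sites in or at genes, 292 had a 3KR score at or above the 3KR median, or 80.2% (75.8 to 84.0). Of the intergenic sites it was 71.1% (65.4 to 76.2), a difference of −9.11 percentage points (Newcombe interval −15.9 to −2.39). The odds ratio was 0.607 (0.420 to 0.877, 2-sided Fisher's exact test, Benjamini-Hochberg adjusted p = 0.0247 over 6 tests). The medians were 17.7 at genes and 13.5 in intergenic DNA. The direction was the same in the 10 other settings that were run, with odds ratios of 0.570 to 0.724. However, 7 of them ended the call, and among these was counting 1 site per run of neighbouring summits, a setting chosen after seeing the data (73.6% against 81.4%, Fisher's exact adjusted p = 0.174).

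The summits of a site lay close together. The offset between WT and 3KR summit had a median of 29 bp and quartiles of 11.3 and 57 bp, and 240 of 270 offsets were at most 100 bp. The 3KR summit was at the higher coordinate in 142 sites, at the lower in 125 and at the same base in 3. Sites in or at genes had a median offset of 28 bp. The 270 WT entries matched 268 different 3KR summits, and each of these was itself outside protein-coding genes by more than 1 kb. At the edge of the 200 bp rule, the last sites inside were those near Ctnnbip1 (196 bp) and Klf5 (199 bp), and the first outside were near P4ha2 (217 bp) and Scaf8 (229 bp).

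**Figure D2:**
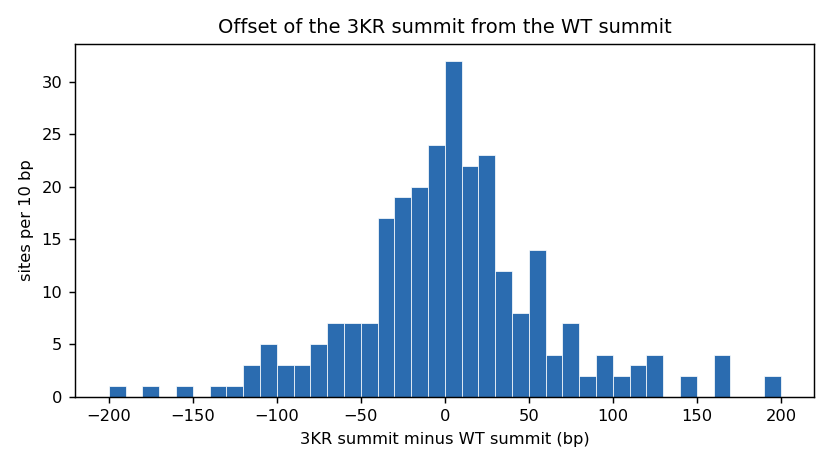
Position of the 3KR summit relative to the WT summit in bp (x axis), as the number of sites per 10 bp (y axis), for the 270 sites. The offsets are centred near 0, with 37.4% at most 20 bp from it.

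The WT summits outside genes and scored below 20 numbered 643, of which the 270 shared ones are 42.0%, beside 52.6% of all 1636 WT summits. The rule used this contrast, so nothing is read from it. The highest WT scores inside the limit were 19.7 near Pign, 19.4 near Cenpw and 19.1 near Fggy. Just outside it stood sites near Tcte2 (20.2) and Galc (20.4). Their 3KR scores were 13.6, 12.8 and 19.7 inside, and 31.8 and 92.0 outside. At the 1 kb limit, sites near Slc11a1 (1030 bp) and Hyal1 (1072 bp) were inside, and sites near Krt5 (957 bp) and Rap2b (997 bp) outside.

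The 10 sites with the highest 3KR scores, from 41.6 to 104, were not the ones with the highest WT scores. First was a site on chromosome 5 (WT summit 118459308, 3KR summit 118459260), 101022 bp from Med13l, which encodes a subunit of the Mediator kinase module. It scored 104 in 3KR (rank 44 of 6753) and 12.8 in WT (rank 535 of 1668). The second was a site at 86487618 on chromosome 1, 38.9 kb from Ptma, the gene of prothymosin alpha, with 59.9 in 3KR and 11.5 in WT. The third lay 31.7 kb from Ccnd1, which encodes the cell cycle protein cyclin D1, at 144971560 on chromosome 7. Its summits were 5 bp apart, and its scores were 57.4 in 3KR and 17.5 in WT.

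The other high sites in 3KR were near Rab6b, a small GTPase gene (2.76 kb, inside the lncRNA gene Gm46128), and Utp25, a gene of ribosomal RNA processing (11.1 kb). They scored 52.9 and 49.0 in 3KR and 13.2 and 15.6 in WT. A site 21.0 kb from Actn1, the gene of the actin cross-linker alpha-actinin 1, scored 48.7 in 3KR and 6.53 in WT, where it ranked 1270. The remaining sites were near Fjx1 (15.3 kb, 3KR 44.6), Armc2 (71.1 kb, 3KR 42.6), Ctnnbip1, an inhibitor of beta-catenin (5.57 kb, 3KR 42.6), and Csmd1 (373 kb, 3KR 41.6). In WT these 4 scored 10.3, 14.7, 11.9 and 16.2. Ranks in WT ran from 329 to 1270 across the 10 sites.

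**Figure D3:**
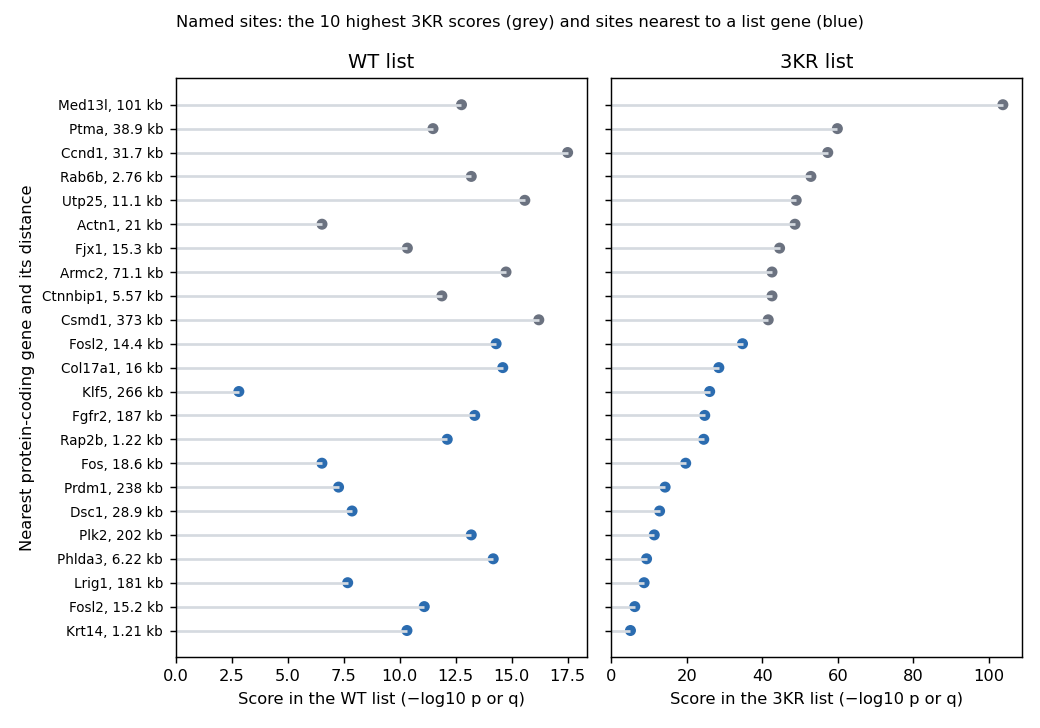
Score in the WT list (left) and in the 3KR list (right), −log10 p or q, of the 10 sites with the highest 3KR score (grey) and of 13 sites whose nearest gene is on a list (blue), labelled with the nearest protein-coding gene and its distance. The panels have separate axes because the lists have separate scales. Med13l stands first in 3KR at 104, and Krt14 last at 5.13.

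The sites had 222 different protein-coding genes as nearest gene, 1.01% of the 21887 annotated. Of 82 known p53 target genes in the table, 4 were among them (4.88%), Rap2b, Phlda3 and Plk2 being described here. Rap2b, a Ras-related GTPase gene, had its site 1215 bp away on chromosome 3 (WT summit 61363292, WT score 12.1, 3KR score 24.5). A further WT summit, 997 bp from Rap2b, is outside the rule and matches the same 3KR summit. Phlda3, a repressor of Akt, had a site 6.22 kb away on chromosome 1 at 135759865, with 14.2 in WT and 9.39 in 3KR. The site nearest to Plk2, a polo-like kinase gene, was 202 kb away and scored 13.2 in WT and 11.4 in 3KR.

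None of 13 feedback regulators of p53, Mdm2 among them, was the nearest gene of a site. The rule leaves out summits in or at protein-coding genes and those with higher WT scores. The absence therefore cannot show that these genes lack shared p53 summits, and nothing is read from it. Counted by distance, 3 of 82 targets had a site within 50 kb of an end (Kcnn4, Phlda3 and Rap2b), beside 1.63% of all genes. Within 100 kb there were 5 of 82, with Cpt1c and Notch1 added, beside 2.80% of all genes. Plk2 is not in these counts, since its site lies farther out. The lists were drawn up with earlier results of these data known, so the counts carry no test.

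Genes of basal epidermal identity were the nearest gene at 4 sites, 4 of 26 listed genes. By distance, 2 of 26 had a site within 50 kb (Krt14 and Col17a1) and 3 of 26 within 100 kb, with Krt15 added, so Fgfr2 and Klf5 below count only through far sites. Krt14, the type I keratin gene of basal cells (chromosome 11, 100203162 to 100207510), had a site 1207 bp outside the gene, at 100208717 in WT and 100208679 in 3KR. Its WT score was 10.3 (rank 732) and its 3KR score 5.13 (rank 6018 of 6753), the lowest 3KR score of the 14 list-gene sites. Col17a1, which encodes a hemidesmosome collagen, had a site 16003 bp away on chromosome 19 with 14.6 in WT and 28.5 in 3KR. The site nearest to Fgfr2, a receptor gene of fibroblast growth factors, was 187 kb away and scored 13.3 in WT and 24.8 in 3KR. The site nearest to Klf5, a transcription factor gene, was 266 kb away on chromosome 14. It had the lowest WT score of all 270 sites, 2.81, and 26.1 in 3KR, with summits 199 bp apart.

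Of 20 AP-1 and immediate early genes, Fos and Fosl2 were nearest genes, also the 2 with a site within 50 kb, and 3 had one within 100 kb. Fosl2, which encodes an AP-1 subunit, had a pair of sites 0.867 kb apart on chromosome 5, both inside the lncRNA gene Gm36665. The site at 32122100, 14.4 kb from Fosl2, scored 14.3 in WT and 34.8 in 3KR. Its neighbour at 32121233 scored 11.1 and 6.27. The site of Fos, another AP-1 subunit gene, was 18.6 kb away on chromosome 12 and inside the lncRNA gene Gm38543, with 6.52 in WT and 19.7 in 3KR. Of 24 epidermal differentiation genes there were Dsc1, a desmosomal cadherin gene (28.9 kb, WT 7.87, 3KR 12.8), and Prdm1, a transcriptional repressor gene (238 kb, WT 7.27, 3KR 14.3).

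Among 14 hair follicle genes Lrig1, a stem cell marker, was nearest to a site 181 kb away, with 7.68 in WT and 8.74 in 3KR. None of 10 fibroblast, 9 immune or 8 melanocyte marker genes was the nearest gene of a site, or had one within 100 kb. Of all protein-coding genes, 1.01% were a nearest gene and 2.80% had a site within 100 kb. With lists this short, nothing is read from that absence. Beyond the lists, Ccnd1, Actn1 and Hes1, a Notch target gene, each were the nearest gene of 2 sites. So were Nectin1, an adhesion gene, and Zfp36l2, an mRNA decay gene. These genes were chosen after their values were seen. Many others also had 2 sites, such as Cd2, Frmd6, Pou3f1 and Ankrd55, and Alkbh8 had 12. Nothing is read from which genes had several. The 2 Nectin1 sites were 0.188 kb apart and matched a single 3KR summit, as did 2 Tmx1 sites 0.201 kb apart.

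The distance to the nearest protein-coding gene had a median of 24.0 kb, with quartiles of 9.91 and 99.3 kb. A gene end lay within 10 kb of 69 sites (25.6%, 20.7 to 31.1), 133 sites were 10 to 100 kb away and 68 farther than 100 kb. The share within 10 kb was 22.8% of 373 WT-only lower-scored intergenic sites (adjusted p = 0.681 by Fisher's exact test, odds ratio 1.16 with interval 0.807 to 1.68) and 24.9% of 2060 3KR-only intergenic sites (adjusted p = 0.942, odds ratio 1.04 with interval 0.774 to 1.39). Intervals of these differences ran from −3.85 to 9.57 and from −4.55 to 6.47 percentage points. The median 3KR score was 12.8 within 10 kb, 15.0 from 10 to 100 kb and 12.1 beyond, or 13.7 beyond without the 12 sites of a run on chromosome 9, so the order of the first and last class rests on that run. The 5 farthest sites were 511 to 655 kb from Tbl1xr1, Gm11677, Igfbp3, Fat1 and Zfp608 in that order, with 3KR scores of 14.3, 23.1, 8.74, 15.0 and 9.39.

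**Figure D4:**
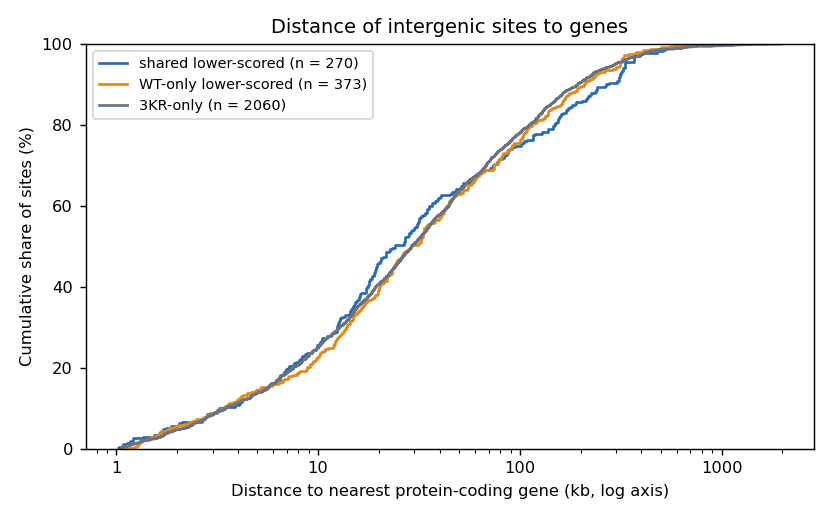
Cumulative share of sites (y axis, percent) by distance to the nearest protein-coding gene (x axis, kb, log scale) for the 270 shared lower-scored sites, 373 WT-only lower-scored sites and 2060 3KR-only sites, all intergenic. The curves run close together, with 25.6%, 22.8% and 24.9% of sites at 10 kb.

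Noncoding genes held 58 of the 270 summits, 49 of them lncRNA genes and 6 transcribed pseudogenes. With a margin of 1 kb the count was 72 (26.7%, 21.7 to 32.2). It was 30.3% of WT-only lower-scored intergenic sites (adjusted p = 0.665 by Fisher's exact test, odds ratio 0.837 with interval 0.590 to 1.19) and 27.0% of 3KR-only intergenic sites (adjusted p = 0.942, odds ratio 0.981 with interval 0.737 to 1.31). Intervals of the differences ran from −10.5 to 3.50 and from −5.67 to 5.51 percentage points. The median 3KR score was 12.8 inside noncoding genes and 13.6 outside. The other 198 sites were clear of genes of every biotype by more than 1 kb.

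By count, the sites were crowded more often than WT-only ones. Another WT summit lay within 10 kb of 75 of them (27.8%, 22.8 to 33.4), against 67 of 373 WT-only lower-scored intergenic sites (18.0%, 14.4 to 22.2). The odds ratio was 1.76 (1.21 to 2.56, 2-sided Fisher's exact test, adjusted p = 0.0227). Neighbouring sites make each other count as crowded, and all 12 sites of the chromosome 9 run are among the 75. The test treats sites as independent, so its p-value and interval are too narrow a measure of error here. The call ended in 5 of the 9 settings run. With offsets of at most 500 bp the odds ratio was 2.78, over 1.5 times as large (31.7% against 14.3%, adjusted p = 1.1e-06 by Fisher's exact test). That setting raised the shared sites to 287 by taking sites out of the WT-only class. Neighbouring WT summits can match the same 3KR summit, so matching and crowding are not independent. The larger value is therefore not read as stronger support. Without the first 5 Mb of each chromosome, a setting chosen after seeing the data, the shares were 19.9% and 15.9% (adjusted p = 0.631 by Fisher's exact test, odds ratio 1.32), and with chromosomes 1 to 19 only they were 25.9% and 18.0% (adjusted p = 0.0679, odds ratio 1.59).

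The first 5 Mb of a chromosome, by coordinate, held 34 of the 270 sites, or 12.6% (9.15 to 17.1). This is given without a test, beside 3.75% of WT-only lower-scored intergenic sites, 2.67% of 3KR-only intergenic sites and 3.02% of shared lower-scored sites in or at genes. As background, mouse autosomes and X have their centromere at this end, next to arrays of satellite repeats, where short reads are hard to place. This does not hold for Y. The repeat content of the sites was not tested. Of the 34 sites, 12 are a single run on chromosome 9 and 3 are on Y. The median 3KR score was 11.8 in the 34 sites, 14.6 in the 22 outside that run, and 13.6 in the 236 sites beyond the first 5 Mb.

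**Figure D5:**
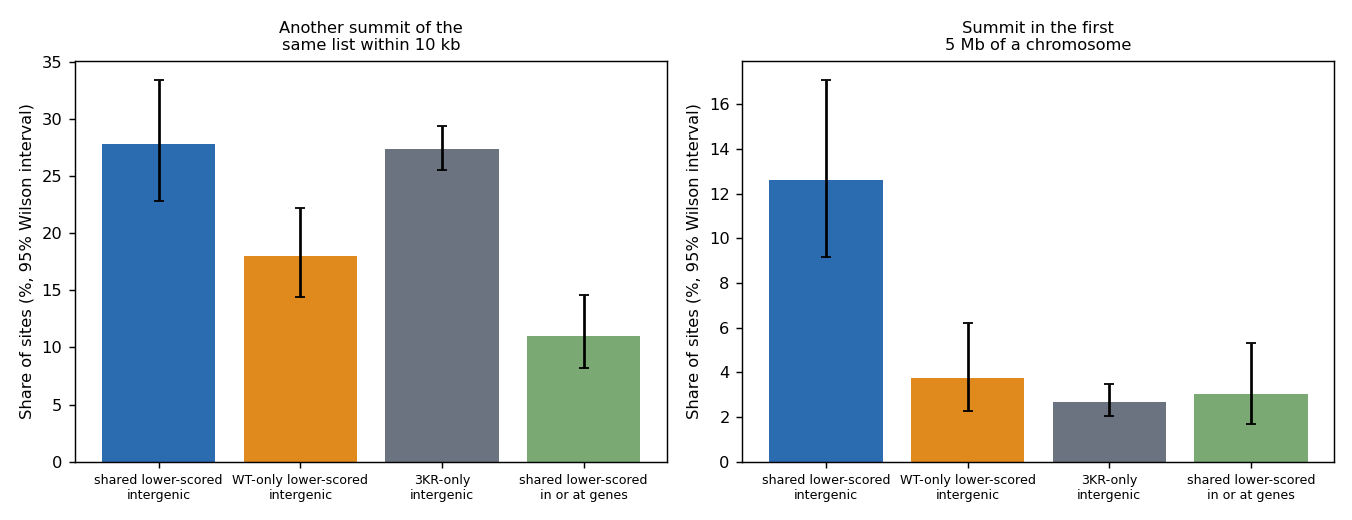
Share of sites (y axis, percent, bars from 0 with 95% Wilson intervals) that have another summit of their own list within 10 kb (left) and that lie in the first 5 Mb of a chromosome (right), in 4 classes. The shared lower-scored intergenic sites reach 27.8% and 12.6%. The 3KR-only class is counted in the 3KR list, which has more summits, so its left bar is not on the same footing.

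The largest run of neighbouring sites was on chromosome 9, where 12 sites stood between 3001769 and 3032521, a span of 30.8 kb with 19 WT and 14 3KR summits. Their WT scores ran from 5.27 to 18.5 (median 11.1) and their 3KR scores from 4.30 to 13.6 (median 5.52). Of the other 258 sites the medians were 9.29 and 13.7, and 2 of the 12 sites were above the 3KR list median. Its summits were 0 to 46 bp apart between lists. The nearest protein-coding gene, Alkbh8, a tRNA methyltransferase gene, is at least 303 kb away. The next runs were 4 sites near 9230019H11Rik on chromosome 10 (6.99 kb span from 3109679), 3 sites near Gm40035 on chromosome 2, and 3 sites near Mid1 on X. Their median 3KR scores were 19.6, 23.9 and 19.2. In all, 50 sites stood in 18 runs, 14 of them pairs, and the 270 sites made up 238 separate places when summits at most 10 kb apart were joined.

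By chromosome, 9 held the most sites, 27, of which 12 are the run. Chromosomes 2, 3, 4 and 11 held 19 each, and chromosome 14 held 4. All 5 lower-scored intergenic WT summits of Y and 6 of 7 of X were shared, as were 7 of 9 on chromosome 19 and 10 of 15 on chromosome 6, beside 42.0% over all chromosomes. These numbers are small, and the X and Y sites include runs near Mid1, LOC665918 and Gm52481.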

How the data were processed

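Each of the 2 lists was made by the authors from the libraries of 1 genotype, per the labels. Alignment and peak tools listed in the submitters' processing notes are BWA and MACS2, with no version, on mm10. How the lists were combined, and against which control and threshold peaks were called, is not given in the sources used here. Each deposited entry is a single-base summit with a score, read as −log10 of a p-value or q-value from the 5-column layout and the values, and used only within its list. Coordinates are 1-based.

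Summits were matched to the nearest summit of the other list, and genes came from a RefSeq table of GRCm38.p6 (21887 protein-coding genes on the chromosomes used). The rule's "any gene end" was read as that of a protein-coding gene; with genes of all biotypes 198 sites remain. Shares have 95% Wilson intervals, odds ratios Woolf intervals, and 6 two-sided Fisher's exact tests were adjusted together by Benjamini-Hochberg at 0.05 (scipy 1.17.1, statsmodels 0.14.6). Genome sequence was not used here, and the motif and repeat tests that needed it were left out. Members and the 9 gene lists (197 of 199 names in the table) were chosen with earlier results of these data known. Named sites are the 10 highest in 3KR, those nearest to a list gene, the 5 farthest from genes, those at the limits and the largest run; 2 of these sites are not reported here. Matching and tests were tested on simulated data.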

Additional observations from a re-analysis of the deposited data

Results flagged for a closer look

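Outside the chromosomes used, on unplaced and mitochondrial sequences, there were 32 WT summits, of which 24 scored below 20. Of these 24, 17 had a 3KR summit at most 200 bp away. The comparisons of the report do not use them, and nothing places them relative to genes. Whether they mark p53 binding was not tested.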

How the results depend on the processing

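Of 10 settings, 8 left the number of sites within 1.5 times of 270. It was 144 with a WT score below 10 and 109 in the top part of both lists (at or above each median). List genes nearest to a site numbered 13, and 5 under each of these settings and 8 with genes of all biotypes.

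The lower share with a high 3KR score than at genes kept its direction and ended as a call with offsets at most 50 bp (odds ratio 0.580), WT score below 10 (0.580), below 30 (0.642), all biotypes (0.724), the top part of both lists (0.649), 1 site per run (0.638) and without the first 5 Mb (0.626). Crowding against WT-only sites kept its direction and ended as a call at 50 bp (1.65), below 10 (1.42), in the top part (1.67), on chromosomes 1 to 19 (1.59) and without the first 5 Mb (1.32). It stayed a call at 500 bp (2.78, with the limit given above), below 30 (1.74), with a 5 kb margin (1.92) and with all biotypes (2.17). The cause was not tested. Counting 1 site per run and leaving out the first 5 Mb were chosen after seeing the data.

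Of the 4 comparisons that passed no test, 3 crossed an odds ratio of 1 and noncoding genes against WT-only sites did not (0.731 to 0.943 in 9 settings). Near genes against WT-only sites gave 0.999 below 10 and 0.760 with all biotypes. Against 3KR-only sites it gave 0.954 at 50 bp, 0.897 below 10, 0.939 below 30 and 0.956 with all biotypes. Noncoding genes against 3KR-only sites gave 1.06 at 500 bp, 1.01 on chromosomes 1 to 19, 1.0997 with 1 site per run and 1.06 without the first 5 Mb. The noncoding comparison could not be made with all biotypes, nor crowding with 1 site per run. The alternatives for the p53 full site were not run. No paired analysis was possible because each genotype has 1 combined list, and for the same reason no library could be left out. Depth is unknown, so a summit missing from a list does not show absent binding.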
